A study of Mus musculus with 6 samples.

Results

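The RNA of the nuclear-encoded subunits of the mitochondrial respiratory chain and ATP synthase was followed through a dendritic cell culture of mouse bone marrow. The genes were chosen by symbol: those that start with Nduf and a subunit letter, with Sdh, with Uqcr, with Cox and a subunit number, or with Atp5. The choice gave 81 of the 21761 genes of the deposited table, of which 37 belong to complex I by name, 4 to complex II, 8 to complex III, 15 to complex IV and 17 to complex V. A muscle isoform of complex IV was left out, and Ndufab1, Cyc1 and Cox4i1 fall outside the symbol pattern. Atp5s and Atp5sl are relatives of ATP synthase genes and not subunits, and Ndufa4, counted here under complex I by its name, is now known as a subunit of complex IV. Subunits encoded in mitochondrial DNA were not analysed here.

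The 6 libraries came from male C57BL/6J mice and fell into 3 groups of 2. Day 0 was bone marrow (replicates II and III). Day 4 was marrow grown in medium with a supernatant that held Flt3 ligand (Flt3L), the cytokine used to raise dendritic cells from marrow, and its libraries are labelled as common myeloid progenitors (replicates I and II). Day 7 was marrow grown for 7 days in the same kind of medium, labelled as bone marrow derived dendritic cells (replicates III and IV), and the labels do not tie its libraries to those of day 4. The labels say that all live cells were taken on days 4 and 7, so the cultures were not sorted. No age is given, and the labels do not state that replicates are separate animals or cultures. The p-values therefore cover the spread of these libraries, which may be technical.

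The respiratory chain sits in the inner mitochondrial membrane. Complex I takes electrons from NADH and complex II from succinate, complex III passes them to cytochrome c, and complex IV hands them to oxygen. Complexes I, III and IV pump protons, and complex V, the ATP synthase, uses the returning protons to make ATP. Each complex has a few catalytic subunits and many small accessory ones, and most of the genes followed here encode the small ones.

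Depth differed widely between days. Reads recovered from the table came to 322837 and 157797 on day 0, 1365635 and 3852628 on day 4, and 16149088 and 10951745 on day 7. At the genes' median length a floor of 3 reads stood at 12.6 and 25.7 RPKM on day 0, 2.97 and 1.05 RPKM on day 4, and 0.251 and 0.371 RPKM on day 7. RPKM scales reads by gene length and by the library's total. In the day 0 III library 15 of the 81 genes were at 0 and 48 had under 3 reads, so single values there carry little weight. Over the 81 genes the 2 libraries of a day gave a Pearson r of log2(RPKM + 1) of 0.36 on day 0, 0.95 on day 4 and 0.99 on day 7, and they differed by over 2-fold for 42, 4 and 0 genes on those days.

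The cell makeup changed along with the time in culture. The summed level of 13 neutrophil markers was 67683 and 8881 RPKM on day 0, 50520 and 37014 RPKM on day 4, and 202 and 206 RPKM on day 7, when Mpo and Prtn3 were at 0 in both libraries. The summed level of 10 erythroid markers was 79156 and 39689 RPKM on day 0, 3746 and 4037 RPKM on day 4, and 45.8 and 64.2 RPKM on day 7. The sum of 13 macrophage markers was 145 and 134 RPKM on day 0, 257 and 168 RPKM on day 4, and 12214 and 13000 RPKM on day 7. Of these lists 13 of 13 neutrophil and 6 of 10 erythroid genes were called lower, and 10 of 13 macrophage genes higher, on day 7 than on day 4 by limma. The sum of 15 dendritic cell markers was 583 and 403 RPKM on day 0, 368 and 80.5 RPKM on day 4, and 3457 and 3741 RPKM on day 7, and 5 of the 15 were called higher on day 7 than on day 4. The labels' cell types were met only in part by their markers. The sum of 8 progenitor markers was 94.5 and 149 RPKM on day 0, 67.7 and 68.8 RPKM on day 4, and 348 and 209 RPKM on day 7. On day 7 against day 4, 1 of the 8 was called higher and 2 lower. Kit, a progenitor receptor, had 10.6 and 21.0 RPKM on day 0, 8.34 and 18.1 RPKM on day 4, and 0.0411 and 0.0505 RPKM on day 7. The median log2 fold change of 8 progenitor markers was -0.78 for day 4 against day 0, and Kit did not pass the test there (limma adjusted p = 0.811). On day 7 H2-Ab1, an MHC class II gene, had 666 and 730 RPKM while Zbtb46, a transcription factor of conventional dendritic cells, had 0.0288 and 0.0283 RPKM. In bulk RNA a change in the share of a cell type and a change of RNA per cell cannot be told apart. The part of this change of cells in the results that follow was not tested.

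The 81 genes took a larger share of all gene reads on day 7 than on either earlier day. The share was 0.422% (95% Clopper-Pearson interval 0.400 to 0.445%) and 0.216% (0.194 to 0.240%) on day 0. On day 4 it was 0.380% (0.370 to 0.390%) and 0.424% (0.418 to 0.431%). On day 7 it was 1.44% (1.44 to 1.45%) and 1.64% (1.64 to 1.65%). These intervals cover counting error only. The median gene stood at 34.9 and 13.1 RPKM on day 0, 37.9 and 37.0 RPKM on day 4, and 187 and 196 RPKM on day 7. The day 7 libraries lay above the other 4 in both measures, and the shares of day 0 and day 4 overlapped.

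**Figure D1:**
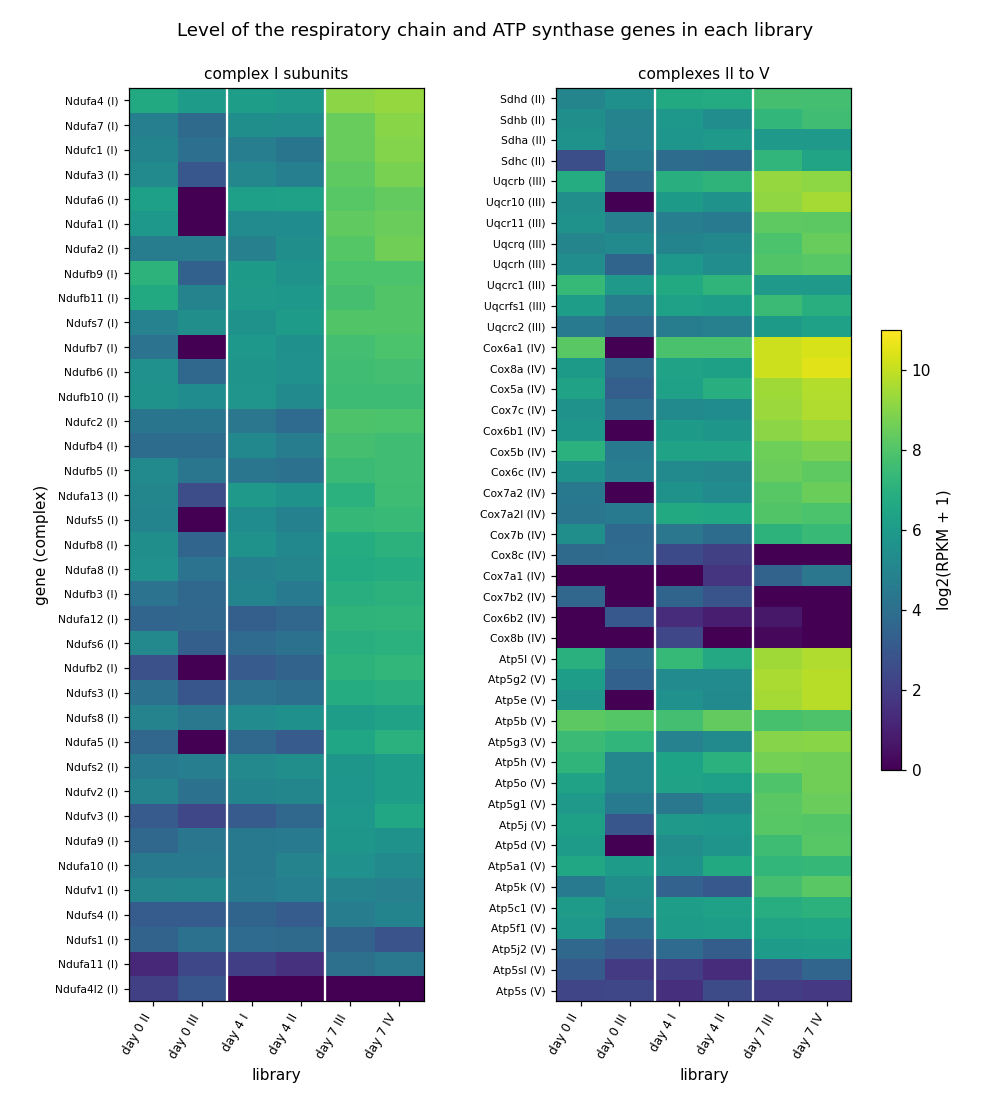
Heat map of log2(RPKM + 1) for the 81 genes (rows, by complex and mean level) in the 6 libraries (columns, day 0 to day 7). Most rows are brightest in both day 7 libraries, Cox8a reaching 1142 and 1453 RPKM there, while dark cells in day 0 III mark many of its 15 genes at 0 and Ndufs1, Uqcrc1 and Atp5b show no such brightening.

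Subunit RNAs stood higher on day 7 than on day 4. Both day 7 libraries stood above both of day 4 for 71 of the 80 genes tested (88.8%). The same held for 19.6% of all genes tested and 50.9% of those that averaged 20 RPKM or more. Limma called 36 of 80 higher and 1, Cox8c, lower (adjusted p under 0.05, Benjamini-Hochberg over all 19279 genes tested). Over all genes tested 5.85% were called higher and 6.75% lower. The genes' median log2 fold change of (RPKM + 1) was 2.27, against -0.81 over all genes tested and 0.42 over the 2958 genes that averaged 20 RPKM or more, of which 22.9% were called higher and 16.1% lower. With Cox8c and Cox7b2, at 0 on day 7, put at their bounds and Ndufa4l2 left out, the median was 2.29 (n = 79). The count rests on every library: it was 22 higher without day 7 III, 18 higher without day 7 IV, and 63 higher without either day 0 library. Without day 4 I or without day 4 II limma called 0 of the 80 genes and 0 genes of the whole table, with 33 and 35 of the 80 higher at an unadjusted p under 0.05, while limma's voom on the reads of all 6 libraries called 65 higher and 3 lower.

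Changes were larger in short genes than in long ones, among the subunits and elsewhere in the table. The subunit genes are short, with a median of 746.5 bases, and their log2 fold change fell with log2 length across genes (Pearson r -0.50, Spearman rho -0.59, n = 80). Across 2888 other genes that averaged 20 RPKM or more, in the same libraries, r was -0.30 and rho -0.41; these describe genes of the same 6 libraries and are not replicates. Among genes under 600 bases 44.8% of 29 subunit genes and 47.3% of 110 other genes were called higher, with medians of 3.11 and 2.76. From 600 to under 1000 bases it was 68.2% of 22 subunit genes and 42.9% of 308 others, with medians of 2.83 and 2.01. From 1000 to under 2000 bases it was 28.6% of 21 subunit genes and 27.8% of 843 others, with medians of 1.01 and 0.87. From 2000 to under 4000 bases it was 16.7% of 6 subunit genes and 16.1% of 1035 others, with medians of 1.34 and -0.08. At 4000 bases and over it was 1 of 2 subunit genes and 9.97% of 592 others, with medians of 0.88 and -0.53. When each library's trend with length was removed, a step added after the data were seen, limma called 13 subunit genes higher and 3 lower. It called 1242 of all 19279 genes tested higher and 2843 lower. The trend was taken over genes that averaged 20 RPKM or more, most of the subunit genes among them. The median was then 0.24 for the subunit genes and -0.64 for all genes. Most of all genes lay outside that fit, so -0.64 and the 1242 and 2843 calls are not a like background. The step shifts genes at 0 reads as well. Of the 37 calls 14 held their direction and call, 15 lost the call and 8 turned in sign. Outside the 81 genes, reads in genes under 600 bases were 2.28% and 2.55% of the total on day 7 and 1.16% and 0.880% on day 4, and reads in genes of 4000 bases and over were 31.7% and 29.7% on day 7 and 43.2% and 42.2% on day 4. The cause of the trend with length was not tested.

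**Figure D2:**
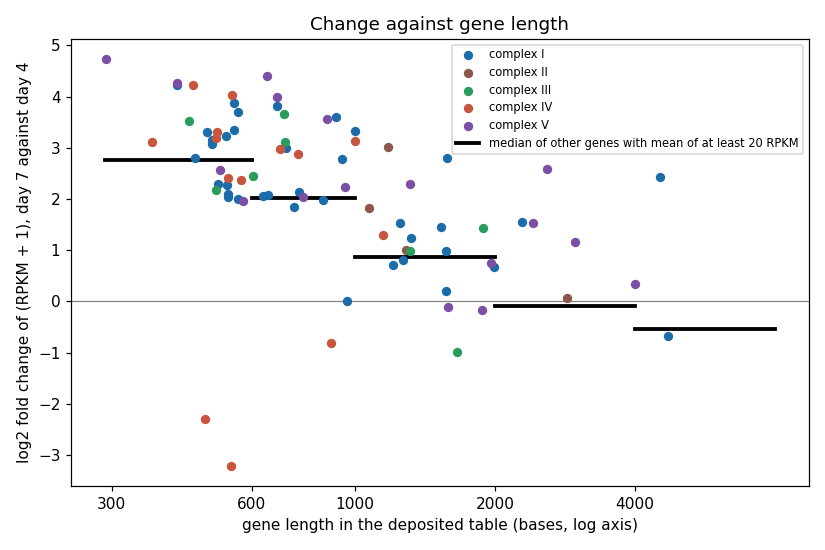
Log2 fold change of (RPKM + 1), day 7 against day 4, for each of the 80 genes tested (points, coloured by complex) against gene length in bases on a log axis. Black bars are the medians of other genes that averaged 20 RPKM or more in 5 length classes, from 2.76 under 600 bases to -0.53 at 4000 bases and over. Points fall from left to right as the bars do.

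The 13 genes still called higher on day 7 after that step came from complexes I, III, IV and V. In complex V they were Atp5g1, Atp5g2 and Atp5g3, which all encode the c subunit of the rotating ring, and Atp5j2, the membrane subunit f. In complex IV they were Cox7b, Cox7c and Cox8a, small subunits that surround the catalytic core. In complex I they were the accessory genes Ndufa3, Ndufa11, Ndufb5, Ndufc2 and Ndufv3, and in complex III Uqcr11. The 3 lower were Uqcrc1, Cox8c and Cox7b2. Cox8c and Cox7b2 had 0 reads on day 7, and the step shifts values at 0 reads as well. It moved Cox8c from -2.29 to -5.36, and Cox7b2 from -3.21, not called, to -6.03. Ndufa4l2, with 0 reads on days 4 and 7, was moved from 0 to -1.74. These low values thus depend in part on the step itself. The step used the listed gene lengths. Ndufa11 and Atp5j2 are listed with 4537 and 2592 bases, but their longest coding sequences in another build have 429 and 264 bases. Whether these 2 calls depend on the listed length was not tested.

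**Figure D3:**
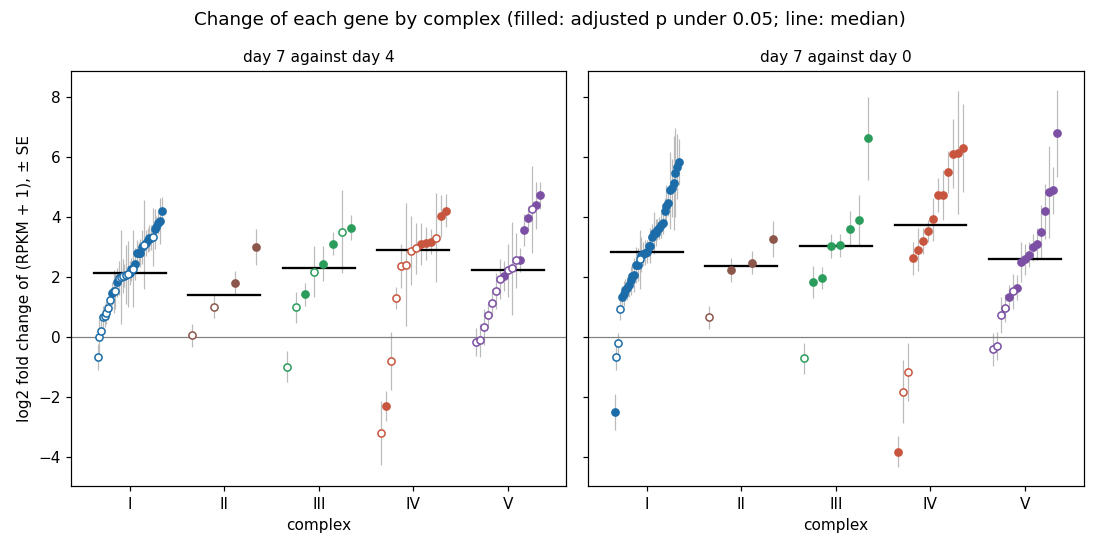
Log2 fold change of (RPKM + 1) with its standard error for each gene by complex, day 7 against day 4 on the left and day 7 against day 0 on the right. Filled points have a limma adjusted p under 0.05 and black lines are medians, which on the left run from 1.41 in complex II to 2.92 in complex IV. Most points lie above 0, and the lowest points are in complex IV.

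Every complex had genes that went up between day 4 and day 7, and differences between complexes were not tested. In complex I 19 of 37 genes were called higher and none lower, with a median of 2.15. In complex II it was 2 of 4 (median 1.41), in complex III 4 of 8 (median 2.32), in complex IV 5 of 14 with 1 lower (median 2.92), and in complex V 6 of 17 (median 2.23). Median gene length was 739, 1232, 704.5, 544 and 951 bases in complexes I to V. Once the length trends were removed the medians were 0.14, 0.18, 0.08, 0.06 and 0.97 for complexes I to V. The order of the complexes thus depended on that step.

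**Figure D4:**
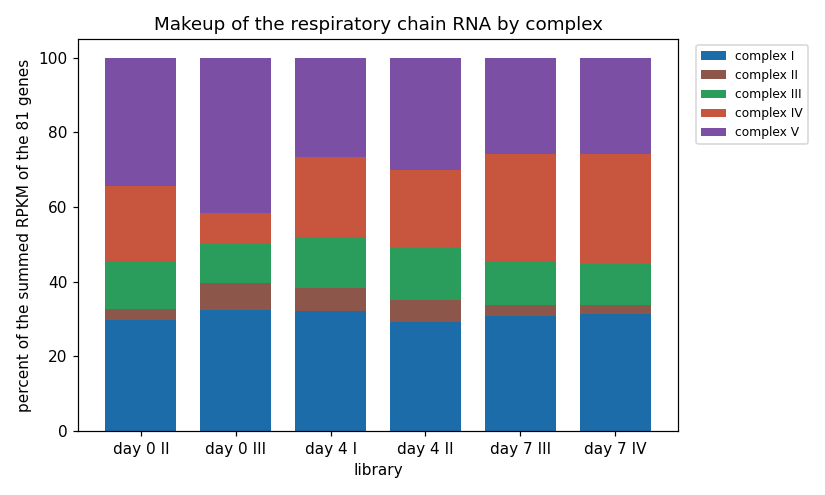
Share of the 81 genes' summed RPKM (percent) held by each complex in each library, stacked from complex I at the bottom to complex V at the top. Complex IV holds 28.8% and 29.4% on day 7 and 21.5% and 20.9% on day 4, while complex II holds 2.95% and 2.45% on day 7 and 6.17% and 5.80% on day 4.

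By summed RPKM the makeup of the subunit RNA shifted toward complex IV. These shares were not corrected for the trend with length. By median, complex IV genes are the shortest, at 544 bases, and complex II genes the longest, at 1232 bases. With the length trends removed complex IV had the lowest median change for day 7 against day 4 (0.06). The part of gene length in these shares was not tested. Complex IV held 20.0% and 8.03% of the summed RPKM on day 0, 21.5% and 20.9% on day 4, and 28.8% and 29.4% on day 7. Complex V held 34.5% and 41.6% on day 0, 26.7% and 30.3% on day 4, and 25.8% and 25.8% on day 7. Complex I stayed between 29.2% and 32.3% in all 6 libraries. Complex III ranged from 10.8% to 13.9%. Complex II, the smallest, had 3.09% and 7.25% on day 0, 6.17% and 5.80% on day 4, and 2.95% and 2.45% on day 7. The day 0 and day 4 libraries overlapped for complexes I and II, and the day 7 libraries stood clear of both earlier days for complexes II, IV and V.

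In complex I more of the small accessory genes than of the catalytic core genes were called higher on day 7. Of 30 accessory genes 17 were called higher on day 7 than on day 4, with a median of 2.36. Of the 7 core genes, which hold the flavin and the iron-sulfur clusters or line the electron path, 2 were called higher, with a median of 0.80. The core genes are also longer, with a median of 1569 bases against 643 bases, and the difference between both kinds was not tested. Ndufa4 was the highest gene filed under complex I, at 101 and 64.4 RPKM on day 0, 70.0 and 58.6 RPKM on day 4, and 539 and 613 RPKM on day 7. Both day 7 libraries stood far above the other 4, and limma gave 3.15 ± 0.42 (log2 ± SE) for day 7 against day 4 (adjusted p = 0.003). After removal of the length trends its change was 0.14 (adjusted p = 0.831).

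Ndufa7, an accessory subunit of the matrix arm, was the next highest. It had 25.7 and 13.1 RPKM on day 0, 44.1 and 40.9 RPKM on day 4, and 350.1 and 528 RPKM on day 7, a log2 change of 3.31 ± 0.44 for day 7 against day 4 (limma adjusted p = 0.0029). Ndufc1 and Ndufc2, accessory subunits of the membrane arm, were among the genes with the smallest p. Ndufc1 had 29.9 and 15.3 RPKM on day 0, 24.8 and 18.2 RPKM on day 4, and 343 and 496 RPKM on day 7 (4.22 ± 0.45, limma adjusted p = 0.00106). Ndufc2 had 18.2 and 18.6 RPKM on day 0, 19.4 and 13.3 RPKM on day 4, and 241 and 238 RPKM on day 7 (3.81 ± 0.36, limma adjusted p = 0.000687). Days 0 and 4 overlapped for both genes. Ndufa12, an accessory subunit beside the NADH-oxidising tip, had 11.0 and 11.3 RPKM on day 0, 9.14 and 11.6 RPKM on day 4, and 142.5 and 147 RPKM on day 7 (3.69 ± 0.35, limma adjusted p = 0.000687). With the length trends removed Ndufc2 remained called at 1.42 (adjusted p = 0.0467), and Ndufa7, Ndufa12 and Ndufc1 were not, with 0.26 (adjusted p = 0.642), 0.93 (adjusted p = 0.194) and 0.92 (adjusted p = 0.123).

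Ndufv1 and Ndufs1, core genes of the NADH-oxidising tip, did not pass the test between day 4 and day 7. Ndufv1, which binds the flavin that accepts electrons from NADH, had 31.5 and 32.3 RPKM on day 0, 21.9 and 25.9 RPKM on day 4, and 29.0 and 26.3 RPKM on day 7. Its change was 0.21 ± 0.35 for day 7 against day 4 (limma adjusted p = 0.65). Ndufs1, the large iron-sulfur subunit and the longest gene of the set at 4722 bases, had 10.5 and 16.1 RPKM on day 0, 13.2 and 13.03 RPKM on day 4, and 10.2 and 6.03 RPKM on day 7. Both day 7 libraries lay below the other 4, yet the change of -0.67 ± 0.43 against day 4 was not called (limma adjusted p = 0.307). Ndufv3, an accessory gene of the tip, was called higher: it had 7.85 and 4.01 RPKM on day 0, 7.88 and 11.8 RPKM on day 4, and 57.5 and 94.6 RPKM on day 7 (2.81 ± 0.46, limma adjusted p = 0.0071). Its change was 1.99 with the length trends removed and was still called (adjusted p = 0.00909). The core genes called higher on day 7 than on day 4 were Ndufs3 and Ndufs7. Ndufs7, which carries the last iron-sulfur cluster before ubiquinone, had 28.6 and 41.8 RPKM on day 0, 49.3 and 66.1 RPKM on day 4, and 257 and 255 RPKM on day 7 (2.15 ± 0.39, limma adjusted p = 0.0111). After removal of the length trends its change turned to -0.04. Ndufa4l2, a relative of Ndufa4 known to respond to low oxygen, had 1 read in each day 0 library and 0 reads on days 4 and 7. It was called lower on day 7 than on day 0, but with 2 reads in all no fold is given.

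In complex II both anchor genes and the iron-sulfur gene were called higher on day 7 than on day 0, and the flavoprotein gene did not pass the test. Sdha, the flavoprotein that oxidises succinate, had 47.7 and 28.8 RPKM on day 0, 54.6 and 59.1 RPKM on day 4, and 58.8 and 60.2 RPKM on day 7. Its change was 0.07 ± 0.39 for day 7 against day 4 (limma adjusted p = 0.897). Sdhb, the iron-sulfur subunit, had 43.3 and 29.5 RPKM on day 0, 57.3 and 41.1 RPKM on day 4, and 154 and 196 RPKM on day 7. It was called higher on day 7 than on day 4 (1.82 ± 0.40, limma adjusted p = 0.0227).

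The membrane anchors Sdhc and Sdhd differed in the size of their steps. Sdhc had 5.25 and 21.5 RPKM on day 0, 13.7 and 12.5 RPKM on day 4, and 149 and 85.3 RPKM on day 7 (3.01 ± 0.60 for day 7 against day 4, limma adjusted p = 0.0157). Sdhd had 31.3 and 44.4 RPKM on day 0, 101.4 and 108 RPKM on day 4, and 214 and 211 RPKM on day 7. Sdhd stood higher at each later day with no overlap. Neither of its steps was called (1.47 ± 0.38, adjusted p = 0.0633 for day 4 against day 0, and 1.01 ± 0.38, adjusted p = 0.125 for day 7 against day 4, by limma), and day 7 against day 0 was (2.48 ± 0.38, limma adjusted p = 0.00413). The difference in timing between the 2 genes was not tested. Complex II genes run from 1073 bases in Sdhb to 2859 bases in Sdha, and with the length trends removed none of the 4 was called between day 4 and day 7.

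In complex III all genes but Uqcrc1 were called higher on day 7 than on day 0, and the core protein genes differed in the sign of their change for day 7 against day 4. Uqcrc1 and Uqcrc2 encode the paired core proteins on the matrix side. Uqcrc1 had 166 and 61.2 RPKM on day 0, 102 and 146 RPKM on day 4, and 61.8 and 60.9 RPKM on day 7. Both day 7 values lay below both of day 4, but the change of -0.98 ± 0.52 did not pass the test (limma adjusted p = 0.239); with the length trends removed it was called lower, at -1.72 (adjusted p = 0.0192). Uqcrc2 had 21.4 and 13.5 RPKM on day 0, 23.7 and 26.9 RPKM on day 4, and 63.3 and 76.7 RPKM on day 7, and was called higher on day 7 than on day 4 (1.43 ± 0.38, limma adjusted p = 0.0455); with the length trends removed it was not called, at 0.89 (adjusted p = 0.0954). The pair is close in length, at 1656 and 1882 bases, and the difference between their changes was not tested.

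The highest genes of complex III encode small subunits without prosthetic groups. Uqcrb had 111 and 12.6 RPKM on day 0, 116 and 140.4 RPKM on day 4, and 605 and 563 RPKM on day 7. Uqcr10 had 42.1 and 0 RPKM on day 0, 63.1 and 49.4 RPKM on day 4, and 579 and 727 RPKM on day 7. Neither was called between day 4 and day 7 (2.18 ± 0.85 and 3.51 ± 1.39, limma adjusted p = 0.133 and 0.139), although the days did not overlap; their error pools all 3 days, and the day 0 libraries lay far apart. Uqcr11, the smallest subunit of the complex, had 48.5 and 27.0 RPKM on day 0, 25.0 and 21.8 RPKM on day 4, and 310.1 and 302 RPKM on day 7 (3.66 ± 0.40, limma adjusted p = 0.00129), and it was called with the length trends removed too (1.33, adjusted p = 0.0215).

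In complex IV the widely expressed subunits reached the highest levels of the whole set. Cox6a1 had 291 and 0 RPKM on day 0, 225 and 229.9 RPKM on day 4, and 1152 and 1287 RPKM on day 7. The day 7 libraries stood about alike and above the other 4, but the day 0 pair was so far apart that day 7 against day 4 was not called (2.41 ± 2.06, limma adjusted p = 0.407). Cox8a had 62.5 and 11.6 RPKM on day 0, 80.6 and 75.2 RPKM on day 4, and 1142 and 1453 RPKM on day 7 (4.03 ± 0.70, limma adjusted p = 0.00889). Cox7c had 48.3 and 14.1 RPKM on day 0, 35.9 and 39.9 RPKM on day 4, and 640.5 and 817 RPKM on day 7 (4.22 ± 0.56, limma adjusted p = 0.00282). Cox8a and Cox7c remained called with the length trends removed, at 1.22 (adjusted p = 0.0479) and 1.05 (adjusted p = 0.0464). Cox7b had 43.3 and 12.7 RPKM on day 0, 19.8 and 13.7 RPKM on day 4, and 137 and 168 RPKM on day 7 (3.12 ± 0.56, limma adjusted p = 0.0101).

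Several complex IV subunits exist as pairs of a widely expressed and a tissue isoform, and the tissue isoforms were low or at 0. Cox7a1, the heart and muscle isoform, was at 0 in both day 0 libraries and in day 4 I, and had 2.13 RPKM in day 4 II and 10.3 and 19.5 RPKM on day 7. It was called higher on day 7 than on day 4 (3.11 ± 0.71, limma adjusted p = 0.0262), and turned to -0.33 with the length trends removed. Its day 7 mean of 14.9 RPKM is below the day 0 floor of 17.1 RPKM, so no fold against day 0 is given. Its partner Cox7a2 had 20.5 and 0 RPKM on day 0, 47.6 and 38.6 RPKM on day 4, and 279.6 and 367 RPKM on day 7. Day 7 against day 4 was not called for Cox7a2 (2.87 ± 1.15, limma adjusted p = 0.143), and day 7 against day 0 was (6.11 ± 1.15, adjusted p = 0.00837).

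The testis isoforms went the other way at very low counts. Cox8c had 13.01 and 13.3 RPKM on day 0, 4.62 and 3.27 RPKM on day 4, and was at 0 on day 7. That is at least 17.0-fold lower on day 7 than on day 4, from 9 reads on day 4 and a floor of 3 reads over both day 7 libraries. Cox8c was called lower on day 7 than on day 4 (-2.29 ± 0.51, limma adjusted p = 0.0233). Cox7b2 had 11.4 and 0 RPKM on day 0, 10.8 and 6.21 RPKM on day 4, and was at 0 on day 7, at least 41.7-fold lower than its 21 reads of day 4, and was not called (-3.21 ± 1.06, limma adjusted p = 0.088). Cox6b2 stayed between 0 and 7.14 RPKM in all 6 libraries, while its widely expressed partner Cox6b1 had 55.2 and 0 RPKM on day 0, 62.4 and 55.5 RPKM on day 4, and 543 and 652 RPKM on day 7. Cox8b, the muscle partner of Cox8a, was at 0 in 4 of the 6 libraries, reached 4.03 RPKM in day 4 I, and was the 1 gene of the 81 that was not tested.

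Cox7a2l, counted here under complex IV by its name, was the 1 gene called higher on day 4 than on day 0. It had 18.9 and 22.1 RPKM on day 0, 102.0 and 96.9 RPKM on day 4, and 258 and 236 RPKM on day 7, each later day standing wholly above the one before. The change was 2.23 ± 0.36 for day 4 against day 0 (limma adjusted p = 0.018) and 1.30 ± 0.36 for day 7 against day 4 (adjusted p = 0.0511). Once the length trends were removed day 4 against day 0 was still called (1.44, adjusted p = 0.0331), and day 7 against day 4 was -0.11 (adjusted p = 0.862).

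In complex V the genes of the catalytic alpha and beta subunits were called in no comparison, while those of the c ring were called higher on day 7. The head is built of Atp5a1 (alpha) and Atp5b (beta), which form the catalytic sites, around the stalk subunits Atp5c1, Atp5d and Atp5e. Atp5b had 297 and 273 RPKM on day 0, 208 and 328 RPKM on day 4, and 220.2 and 244 RPKM on day 7. It was the highest of the 81 genes in day 0 II, day 0 III and day 4 II, and on day 7 many small subunits exceeded it. Its change was -0.17 ± 0.47 for day 7 against day 4 (limma adjusted p = 0.777). Atp5a1 had 94.6 and 65.9 RPKM on day 0, 48.9 and 100.3 RPKM on day 4, and 156 and 158 RPKM on day 7 (1.15 ± 0.46, limma adjusted p = 0.142). Atp5e, the small epsilon subunit, had 52.4 and 0 RPKM on day 0, 46.0 and 37.0 RPKM on day 4, and 734 and 895 RPKM on day 7 (4.26 ± 1.46, limma adjusted p = 0.0978). Alpha and beta are encoded by genes of 2979 and 1879 bases and epsilon by one of 414 bases.

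The genes for the c subunit and other membrane subunits had some of the largest changes. Atp5g1, Atp5g2 and Atp5g3 encode the same mature c protein with different import signals. Atp5g1 had 60.3 and 21.8 RPKM on day 0, 20.1 and 34.2 RPKM on day 4, and 294 and 354 RPKM on day 7 (3.57 ± 0.53, limma adjusted p = 0.00466). Atp5g2 had 71.8 and 9.79 RPKM on day 0, 38.5 and 38.9 RPKM on day 4, and 780.2 and 889.8 RPKM on day 7 (4.39 ± 0.77, limma adjusted p = 0.00946). Atp5g3 had 182 and 149 RPKM on day 0, 28.0 and 36.7 RPKM on day 4, and 512 and 531 RPKM on day 7. Atp5g3 thus dipped on day 4 with no overlap, and it was the 1 gene called lower on day 4 than on day 0 (-2.33 ± 0.40, limma adjusted p = 0.0209) as well as higher on day 7 than on day 4 (3.98 ± 0.40, adjusted p = 0.000886). Those changes share the day 4 libraries. With the length trends removed the day 7 to day 4 changes of the c genes were 1.65 for Atp5g1, 1.90 for Atp5g2 and 1.58 for Atp5g3 (adjusted p = 0.0146, 0.0181 and 0.0229). For day 7 against day 0 they were 0.47, 1.78 and -1.38 (limma adjusted p = 0.298, 0.0109 and 0.0182). Atp5g3 was thus called higher than on day 0 in the main fit (1.65) and lower after that step.

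**Figure D5:**
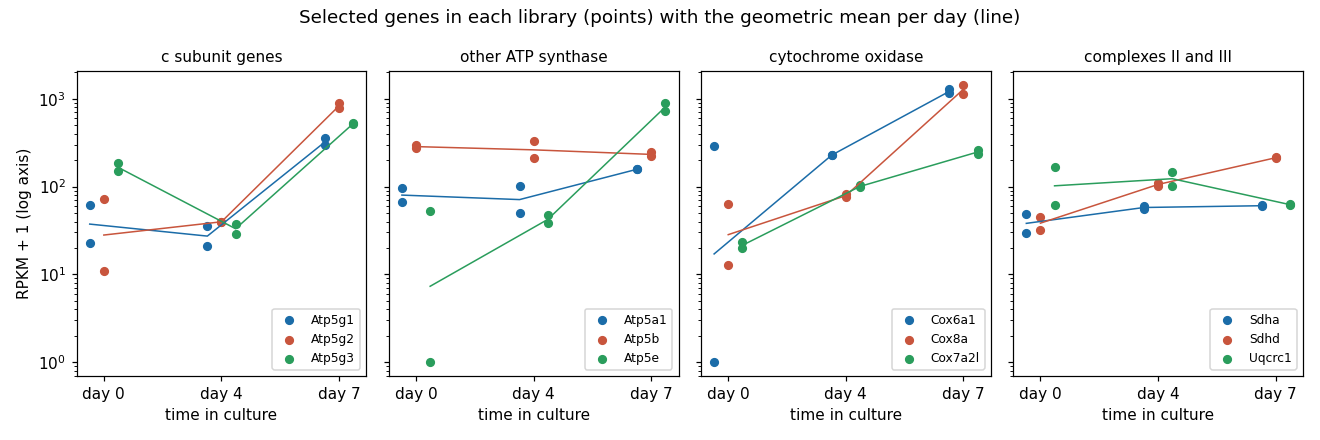
RPKM + 1 on a log axis in each library (points) by day, with the geometric mean per day (lines), for genes of the c subunit, other ATP synthase subunits, cytochrome oxidase, and complexes II and III. The c subunit genes reach 294 to 889.8 RPKM on day 7, whereas Atp5b stays between 208 and 328 RPKM and Sdha between 28.8 and 60.2 RPKM throughout.

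Atp5k, subunit e, had the largest change of the 80 genes between day 4 and day 7. It had 21.2 and 43.4 RPKM on day 0, 10.0 and 7.11 RPKM on day 4, and 217 and 287 RPKM on day 7 (4.73 ± 0.44, limma adjusted p = 0.000687). At 292 bases it is also the shortest of the 80, and with the length trends removed its change was 1.29 (adjusted p = 0.254). Atp5l, subunit g, had 127 and 12.4 RPKM on day 0, 166 and 97.7 RPKM on day 4, and 695 and 818 RPKM on day 7, and was not called (2.56 ± 0.92, limma adjusted p = 0.11). Atp5j2, subunit f, is listed with 2592 bases, of which its longest coding sequence in another build would fill 264. It had 12.0 and 7.33 RPKM on day 0, 13.3 and 8.61 RPKM on day 4, and 67.0 and 70.8 RPKM on day 7 (2.58 ± 0.41, limma adjusted p = 0.006), and with the length trends removed its change was 2.48 (adjusted p = 0.0037). The non-subunit relatives Atp5s and Atp5sl stayed low, at 1.85 to 4.75 RPKM and 1.61 to 10.9 RPKM over the 6 libraries, and were called in no comparison.

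Promoters of respiratory chain genes are known for binding sites of NRF1, of the ETS factor GABP and of YY1, so the letters of those sites were looked for in the RefSeq promoter windows of the genes (build GRCm38.p6, 300 bases across the start, most of them before it, both strands). A window was at hand for 69 of the 81 genes. The NRF1 word GCGCATGC was held by 10 of them (14.5%), against 690 of the 16524 genes with a window (4.18%). A gene was counted as a holder if any of its windows held the word. The ETS word CCGGAAG was held by 16 (23.2%, against 13.5% of all genes with a window) and the YY1 word AAGATGGCG by 8 (11.6%, against 2.28%). The ETS word ends and the YY1 word begins with the same letters, so that a stretch can hold both. Atp5j held both words without shared letters, the YY1 word from base 163 of its window and the ETS word from base 190. A match describes the sequence and does not show a bound site. Of the holders 6 of 10, 6 of 16 and 5 of 8 were called higher on day 7 than on day 4, against 31 of all 69.

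Both the NRF1 and the ETS word stood in 5 windows, those of Atp5k, Atp5l, Cox6a1, Sdhb and Uqcr11. The windows of the 3 that were called higher on day 7 than on day 4 are shown 5′ to 3′ in the direction of the gene. Both words are in capitals. With the length trends removed Uqcr11 remained called. Atp5k (1.29, limma adjusted p = 0.254) and Sdhb (0.28, limma adjusted p = 0.595) did not. A link between the words and the change was not tested. They lie at chr5:108434350-108434649 (minus strand, Atp5k), chr4:140961021-140961320 (plus strand, Sdhb) and chr10:80406772-80407071 (minus strand, Uqcr11).
Atp5k: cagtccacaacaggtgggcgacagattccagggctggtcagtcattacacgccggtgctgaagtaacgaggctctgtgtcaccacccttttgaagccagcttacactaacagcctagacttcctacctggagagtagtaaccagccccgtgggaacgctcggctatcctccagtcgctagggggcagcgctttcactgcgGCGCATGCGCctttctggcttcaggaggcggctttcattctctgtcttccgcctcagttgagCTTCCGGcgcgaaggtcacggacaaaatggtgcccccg
Sdhb: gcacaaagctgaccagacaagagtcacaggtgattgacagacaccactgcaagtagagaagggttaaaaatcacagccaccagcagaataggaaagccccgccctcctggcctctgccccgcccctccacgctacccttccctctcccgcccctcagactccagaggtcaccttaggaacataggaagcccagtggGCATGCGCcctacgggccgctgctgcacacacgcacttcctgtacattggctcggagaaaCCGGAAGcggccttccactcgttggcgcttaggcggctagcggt
Uqcr11: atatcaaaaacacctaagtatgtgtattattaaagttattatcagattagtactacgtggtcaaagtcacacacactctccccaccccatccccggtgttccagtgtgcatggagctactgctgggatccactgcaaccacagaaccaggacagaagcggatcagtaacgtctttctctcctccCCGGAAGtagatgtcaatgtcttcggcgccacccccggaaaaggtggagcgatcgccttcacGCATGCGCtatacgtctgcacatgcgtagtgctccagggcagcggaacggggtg
In Atp5k the NRF1 word begins at base 201 and, on the other strand, at base 203 of the window, so that both matches share letters, and the ETS word begins at base 263. In Sdhb the words begin at bases 197 and 257, and in Uqcr11 the ETS word comes first, at base 185, and the NRF1 word at base 247. The values of Atp5k, Sdhb and Uqcr11 are given above with their complexes.

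Against fresh marrow most subunit genes were called higher on day 7. Limma called 65 of 80 higher and 2 lower, Ndufa4l2 and Cox8c, at adjusted p under 0.05, with a median of 2.96 (3.02 over the 76 genes with neither day at 0). Over all genes tested 11.3% were called higher and 29.3% lower, with a median of -1.14. Among the genes that averaged 20 RPKM or more 48.3% were called higher. By gene length, 93.1% of subunit genes and 67.3% of other genes at that level were called higher under 600 bases. From 600 to under 1000 bases it was 86.4% and 76.6%, and from 1000 to under 2000 bases 76.2% and 59.9%. From 2000 to under 4000 bases it was 33.3% of 6 subunit genes and 38.8% of others. At 4000 bases and over it was 1 of 2 subunit genes and 25.5% of others. These differences were not tested. By complex the higher calls were 32 of 37 in I, 3 of 4 in II, 7 of 8 in III, 11 of 14 in IV and 12 of 17 in V. Of the 65 genes 28 were called in this comparison alone, among them Cox6a1, Uqcrb, Uqcr10, Atp5e and Atp5l. The comparison shares the day 7 libraries with the one before. The count was 37 higher without day 4 I or without day 4 II, 41 higher without day 7 III and 34 higher without day 7 IV, and 69 and 64 higher without day 0 II and day 0 III. With quantile normalization 17 were called higher and 3 lower, and over all genes tested the counts were 1211 and 930, in place of 2183 and 5649. With the length trends removed 16 were called higher and 12 lower, the median was 0.23, and 21 of the 67 calls turned in sign. Over all genes tested that step called 1092 higher and 9269 lower. Most of those genes lay outside the fit of the trend, so these counts are not a like background. Among the 12 lower subunit genes were Ndufa4l2, Cox8c and Cox7b2, which had 0 reads on day 7.

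The genes with the smallest p in that comparison were complex I accessory genes and Cox7a2l. Ndufb4, a subunit of the membrane arm, had 13.6 and 14.0 RPKM on day 0, 33.9 and 24.0 RPKM on day 4, and 217 and 194 RPKM on day 7 (3.80 ± 0.36 for day 7 against day 0, limma adjusted p = 0.000638). Cox7a2l changed by 3.53 ± 0.36 (adjusted p = 0.000804) and Ndufa12 by 3.58 ± 0.35 (adjusted p = 0.0007) in the same fit. After removal of the length trends Ndufb4 had 0.13 (adjusted p = 0.84) and Ndufa12 0.24 (adjusted p = 0.681), neither called, and Cox7a2l was still called at 1.34 (adjusted p = 0.0149). These genes had like RPKM values in both day 0 libraries, unlike Cox6a1 and the other genes at 0 in day 0 III. For Ndufb4 and Ndufa12 these rest on 2 reads in day 0 II and 1 read in day 0 III, under the floor of 3 reads. For Cox7a2l they rest on 7 and 4 reads. So few reads cannot show that the day 0 levels were alike.

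Between day 0 and day 4 few subunit genes were called. Limma called 1 of 80 higher (Cox7a2l) and 1 lower (Atp5g3), against 3.66% and 1.92% of all genes tested, and 8 were higher and 4 lower at an unadjusted p under 0.05. The median was 0.54, against -0.40 over all genes tested. Both day 4 libraries stood above both of day 0 for 28 of 80 genes (35.0%). The same held for 17.9% of all genes tested and 53.1% of those that averaged 20 RPKM or more. The outcome turned on the shallow day 0 libraries: without day 0 II, 33 were called higher and 3 lower with a median of 0.98, and without day 0 III, 3 were called higher and 2 lower with a median of -0.02. Without day 4 I or day 4 II limma called 0 in either direction, with 3 and 3 higher and 4 and 3 lower at an unadjusted p under 0.05, and voom on all 6 libraries also called 0, with 2 higher and 2 lower at an unadjusted p under 0.05. Without day 7 III, Atp5g3 was no longer called and Cox7a2l was. With the length trends removed 2 were called higher and 5 lower, with a median of -0.15. Over all genes tested that step called 516 higher and 2525 lower, which is not a like background either.

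In all, 13 genes were called in no comparison. They include the large catalytic or core genes Ndufs1, Ndufv1, Sdha, Uqcrc1, Atp5a1 and Atp5b, together with Ndufa10, Ndufb9, Atp5f1, the isoforms Cox6b2 and Cox7b2, and the relatives Atp5s and Atp5sl. A missed call does not show that a level was unchanged.

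Other genes of the mitochondrion were followed by list, and differences between the lists and the subunit genes were not tested. Over all genes tested 5.85% were called higher and 6.75% lower on day 7 against day 4. It was 11.3% and 29.3% for day 7 against day 0, and 3.66% and 1.92% for day 4 against day 0. Differences of the lists from these shares were not tested. The factors that assemble the complexes had 6 of 40 called higher and none lower on day 7 against day 4, with a median of 0.46 and a median length of 1856 bases. Among them Sdhaf4, an assembly factor of complex II, had 4.64 and 9.50 RPKM on day 0, 7.68 and 7.00 RPKM on day 4, and 121 and 128 RPKM on day 7 (3.91 ± 0.41, limma adjusted p = 0.00106). Cox17, a copper chaperone for complex IV, had 63.9 and 14.5 RPKM on day 0, 50.4 and 29.2 RPKM on day 4, and 231 and 309 RPKM on day 7 (2.77 ± 0.65, limma adjusted p = 0.0295). Against day 0, 15 assembly factors were called higher and 4 lower on day 7, the lower ones being Acad9, Ecsit, Ndufaf6 and Sco1. On day 4 against day 0, Cox14 and Surf1 were called higher.

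Subunits and partners that the symbol pattern missed were called higher mainly against day 0. Of 9 tested 1 was called higher on day 7 than on day 4 and 6 on day 7 than on day 0, with medians of 1.40 and 2.58. Cox4i1, a large subunit of complex IV, had 266 and 35.7 RPKM on day 0, 234 and 253 RPKM on day 4, and 766 and 978 RPKM on day 7 (1.83 ± 0.84 for day 7 against day 4, limma adjusted p = 0.189). Atpif1, which inhibits the ATP synthase when it runs in reverse, had 156 and 38.9 RPKM on day 0, 30.5 and 49.0 RPKM on day 4, and 445 and 497 RPKM on day 7 (3.57 ± 0.64, limma adjusted p = 0.01).

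The citric acid cycle enzymes that feed the chain had a median log2 fold change of 0.30 over 17 genes tested for day 7 against day 4. Mdh2, the malate dehydrogenase and the highest of them, had 155 and 59.3 RPKM on day 0, 106 and 125 RPKM on day 4, and 109.6 and 159 RPKM on day 7 (0.20 ± 0.52, limma adjusted p = 0.77). These genes have a median length of 2761 bases. Ogdh, of the oxoglutarate dehydrogenase complex, was called lower on day 7 than on day 0.

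The regulators of mitochondrial biogenesis and of mitochondrial DNA included none that was called higher. Of 17 tested 2 were called lower on day 7 than on day 4, Polg and Nrf1, with a median of -0.02 over the list and a median length of 4365 bases. Over all genes tested 5.85% were called higher and 6.75% lower in that comparison. Among other genes of 4000 bases and over that averaged 20 RPKM or more it was 9.97% and 29.1%. With 17 genes the counts were not set apart from those shares by any test. Nrf1, the factor whose word stands in the promoters above, had 6.10 and 13.2 RPKM on day 0, 11.5 and 11.8 RPKM on day 4, and 0.975 and 2.05 RPKM on day 7 (-2.37 ± 0.52, limma adjusted p = 0.0219). Polg, the polymerase of mitochondrial DNA, had 9.77 and 12.0 RPKM on day 0, 24.8 and 36.0 RPKM on day 4, and 3.65 and 5.30 RPKM on day 7 (-2.51 ± 0.41, limma adjusted p = 0.00704). Both are long, at 9143 and 4755 bases. Yy1 had 28.0 and 38.2 RPKM on day 0, 17.3 and 27.0 RPKM on day 4, and 30.0 and 33.3 RPKM on day 7, and was not called (0.53 ± 0.39 for day 7 against day 4, limma adjusted p = 0.358).

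Among carriers, import and outer membrane genes 6 of 23 were called higher and none lower on day 7 than on day 4, with a median of 1.11 and a median length of 1799 bases. Hspe1, the small partner of the matrix chaperonin, had the smallest p, with 28.2 and 16.5 RPKM on day 0, 16.2 and 15.5 RPKM on day 4, and 383 and 436 RPKM on day 7 (4.60 ± 0.39, limma adjusted p = 0.000449). Slc25a4, an ADP/ATP carrier of the inner membrane, had 25.9 and 7.58 RPKM on day 0, 15.3 and 14.9 RPKM on day 4, and 131 and 129.7 RPKM on day 7 (3.03 ± 0.53, limma adjusted p = 0.00934). Its widely expressed relative Slc25a5 was already high, at 578 and 287 RPKM on day 0, 299.9 and 487 RPKM on day 4, and 498 and 514 RPKM on day 7 (0.40 ± 0.58, limma adjusted p = 0.598). Vdac2, an outer membrane channel, had 63.4 and 57.2 RPKM on day 0, 83.7 and 91.8 RPKM on day 4, and 218 and 234 RPKM on day 7 (1.36 ± 0.37, limma adjusted p = 0.0498). On day 4 against day 0 the single call of the list was Hspd1, the chaperonin itself, which was lower (-1.60 ± 0.35, limma adjusted p = 0.0408).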

How the data were processed

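RNA-seq was measured in 6 libraries, 2 each of days 0, 4 and 7. Per the labels' protocols, total RNA was taken up on RNeasy columns and turned into libraries by SMARTer (ultra low input) and NexteraXT kits. The table deposited by the authors gives RPKM per gene with Entrez ID, symbol and length. The submitters' processing notes name build mm9, TopHat2 2.0.13 and SAMtools 1.1 with no role. How reads were counted, on which annotation and with what strand setting is not given in the sources used here, so reads of overlapping genes, or of near-identical copies of short subunit genes, may be shared.

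Each RPKM value came out as whole reads to within 6.88e-05 reads, so that reads and library totals were recovered. They ran from 157797 to 16149088 per library. Genes with at least 1 RPKM in at least 2 libraries (19279 genes) were tested on log2(RPKM + 1), which understates the change of low genes. The test was limma-trend on 3 day means, two-sided (limma 3.58.1, R 4.3.3), with 3 residual and at the median 5.22 prior degrees of freedom. P-values were adjusted over all genes tested (Benjamini-Hochberg), and calls needed an adjusted p under 0.05. The 3 comparisons share libraries. The main limma fit was tested on simulated libraries of about equal depth, unlike the libraries here. Removal of the length trends and the floors were not simulated.

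The genes, lists and tests were chosen with earlier results of these data known. Any gene of the set could be named. Values per library are given for the genes with the highest mean of each complex, all of complex II, isoforms and those with the smallest p, and a few core or longer genes named after their values were seen. Other lists are given by counts, with their highest or most significant genes. A result of the citric acid cycle list is not reported here. Alternatives covered the pseudocount (0.1 RPKM), the filter (none, or a mean of at least 20 RPKM), median-ratio scaling, quantile normalization, limma's voom on recovered reads, only the days compared, thinning to the lowest total, and leaving out each library. Removal of each library's loess trend with gene length (span 0.5) was added after the data were seen. Coding lengths from another build were also tried for the relation with length. Plots used matplotlib 3.10.9 and exact intervals scipy 1.17.1 in Python 3.11.15.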

Additional observations from a re-analysis of the deposited data

How the results depend on the processing

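No paired analysis was possible because the days compared share fewer than 2 replicate numbers. Depth limits day 0 most, where 3 and 15 of the 81 genes had no reads. With 1 library of a day left out, the lone library is assumed to vary like the others. For day 7 against day 4 the counts of genes called higher ran from 0 to 63 and lower from 0 to 3 over the fits that leave out 1 library, with medians of 2.22 to 2.35; for day 7 against day 0 they ran from 34 to 69, from 1 to 4 and from 2.28 to 3.44; for day 4 against day 0 from 0 to 33, from 0 to 3 and from -0.02 to 0.98. For day 7 against day 4 the higher, lower counts and median were 12, 0 (3 lower at an unadjusted p under 0.05) and 1.60 with quantile normalization, 65, 3 and 2.33 with voom, 8, 0 (0 lower at an unadjusted p under 0.05) and 2.54 after thinning, and 13, 3 and 0.24 with the length trends removed. With only those 2 days in the fit 63 were higher and 3 lower, with a mean of at least 20 RPKM 0 were lower by limma (0 at an unadjusted p under 0.05) and the median was 2.39, and with median-ratio scaling the median was 2.54. For day 7 against day 0 the counts were 17 higher with quantile normalization (median 1.83), 37 higher with only those days, 16 higher and 1 lower after thinning, 4 lower with voom, 0 lower with a mean of at least 20 RPKM (0 at an unadjusted p under 0.05), and 16 higher and 12 lower with the length trends removed (median 0.23). For day 4 against day 0 they were 2 and 2 with a mean of at least 20 RPKM, 3 lower with quantile normalization, 0 and 0 with voom (2 and 2 at an unadjusted p under 0.05), and 2 and 5 with the length trends removed. Quantile normalization put the median of all genes at 0.04 in place of -0.81 for day 7 against day 4, and at -0.01 in place of -1.14 for day 7 against day 0; median-ratio scaling put them at -0.70 and -0.96. Coding length gave nearly the same relation with the change for day 7 against day 4 (r -0.50, rho -0.60, n = 80) as gene length.

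With the length trends removed the log2 change of called genes turned in sign for day 7 against day 4 in Cox7a1 (-0.33), Atp5o (-0.12), Ndufb3 (-0.60), Uqcrh (-0.17), Ndufb4 (-0.35), Ndufb10 (-0.47), Ndufa8 (-0.40) and Ndufs7 (-0.043). For day 7 against day 0 it turned in Ndufb11 (-0.60), Atp5c1 (-0.025), Atp5k (-0.91), Cox5b (-0.40), Cox6c (-0.31), Ndufa4 (-0.73), Ndufs4 (-0.12), Ndufs8 (-0.46), Atp5g3 (-1.38), Ndufb6 (-0.37), Atp5o (-0.24), Ndufs6 (-0.21), Ndufa9 (-0.25), Ndufb3 (-0.38), Uqcrfs1 (-0.15), Sdhb (-0.060), Ndufb10 (-1.09), Ndufa8 (-0.999), Atp5h (-0.79), Ndufv2 (-0.26) and Ndufs7 (-0.012). Of these, Atp5g3, Ndufb10 and Ndufa8 were called lower on day 7 than on day 0. Quantile normalization turned Atp5g3 for day 7 against day 0 (-0.014). The cause was not tested. Filters on low values other than a mean of at least 20 RPKM and the smaller pseudocount changed no count by over 1.5 times.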
